A study of Arabidopsis thaliana with 8 samples.

Results

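The HAD class B acid phosphatase genes of the Arabidopsis thaliana root are described here as 8 loci, AT5G44020, AT1G04040, AT4G29260, AT4G29270, AT4G25150, AT5G51260, AT2G38600 and AT2G39920, of the 13286 loci that had a probe set assigned to 1 gene. Family membership came from the locus list, and each locus was matched to its probe set through the platform annotation and the locus tags of a RefSeq gene table. Each of the 8 had exactly 1 such probe set, and all 8 probe set IDs end in the plain _at suffix, Affymetrix's mark for probes not designed to be shared between genes. The gene table gives these loci no names beyond the locus tag, and protein sequences were not examined here, so the family assignment was not checked. The family was chosen by the zone 2 and zone 4 signals of AT5G44020 and AT1G04040, which were known to lie far above those of zone 1. All differences from zone 1 are therefore given as a description, without a test, and the tests concern zones 2, 3 and 4.

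The samples were root sections of ecotype Columbia, cut into 4 longitudinal zones that the labels number 1 to 4 and call developmental stages, with 2 arrays per zone. All 8 samples came from seedlings kept for 5 days on a full nutrient medium (MS) and for the last 3 hours before dissection on one lacking sulfur. Stratification had lasted 2 days at 4 °C for all 8 samples. The sulfur-deficient medium held phosphate at 1.25 mM and 1% sucrose, and no group was kept on full sulfur, so no value here measures a response to sulfur or phosphate supply. Neither the position of the tip in this numbering nor the independence of the plants behind the arrays of a zone is stated in the labels. The p-values therefore cover the scatter between arrays, which could be technical only.

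Acid phosphatases release inorganic phosphate from organic phosphate esters at acidic pH, in the vacuole, the cell wall and the medium around the root. The class B enzymes have the fold of the haloacid dehalogenase (HAD) superfamily, whose members use an aspartate as the nucleophile and a magnesium ion as cofactor. They differ in structure from the purple acid phosphatases, which carry a pair of metal ions and are the enzymes best known for being secreted by phosphate-starved roots. The vegetative storage proteins VSP1 and VSP2 of Arabidopsis belong to the same HAD family. VSP1 and VSP2 were not analysed here.

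The family split into a pair of genes with a very large range along the root and 6 genes with a small or dim one. AT1G04040 spanned 320-fold between its lowest and highest arrays, and AT5G44020 went from 2.63, a signal too dim to give a fold, to 4154. Both had their lowest array in zone 1 and their highest in zone 3. AT4G29260 spanned 1.96-fold, AT4G29270 2.29-fold, AT5G51260 3.53-fold and AT4G25150 4.22-fold. The other two, AT2G38600 and AT2G39920, had signals mostly in the dimmest part of the arrays. Among the 6 genes bright enough to be tested, the highest zone mean was in zone 4 for 3, in zone 3 for 2, in zone 2 for 1 and in zone 1 for 0. In zone-sectioned bulk tissue, fewer cells of a type and less RNA per cell cannot be told apart.

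**Figure D1:**
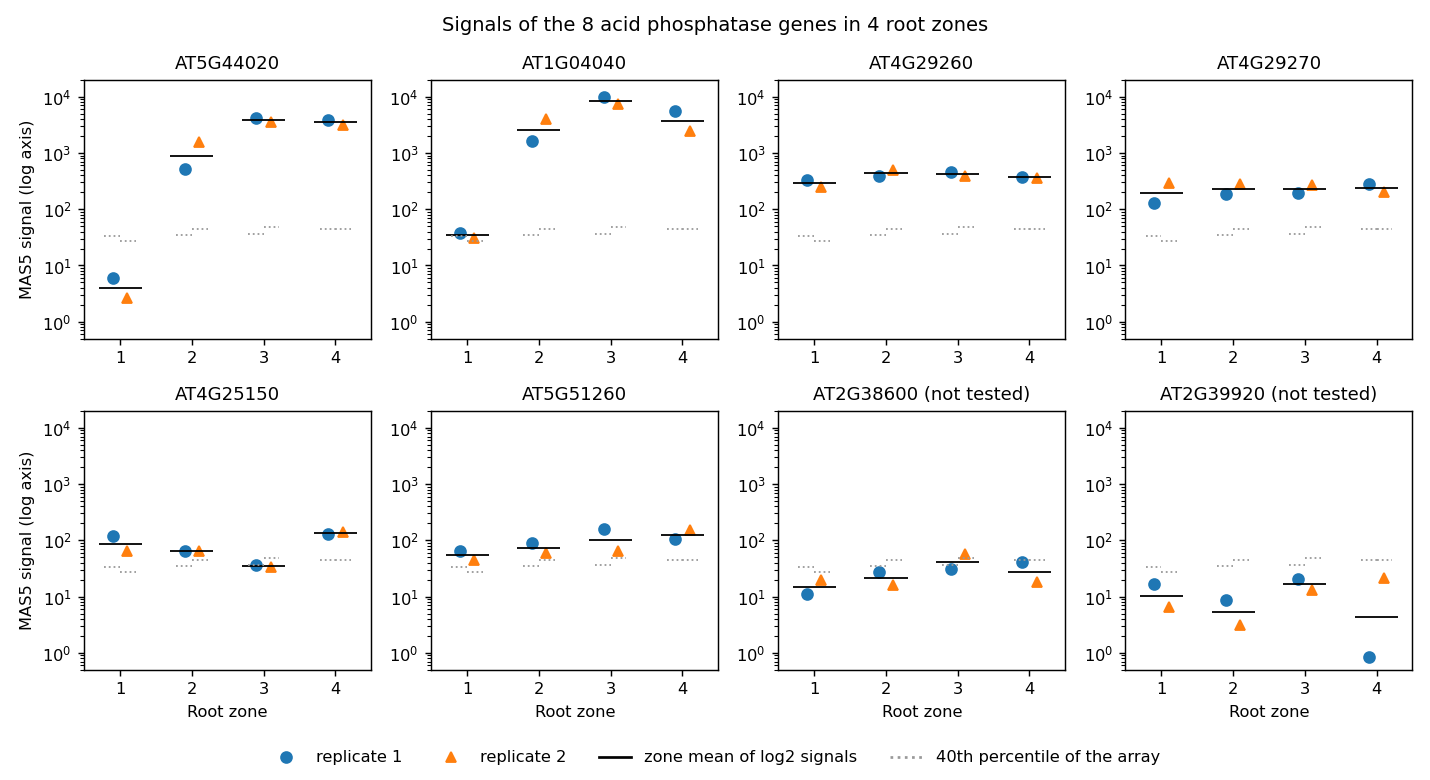
Deposited MAS5 signal (log axis) of each of the 8 acid phosphatase genes on every array, by root zone; circles and triangles are replicates 1 and 2, black lines the zone means of log2 signals and dotted lines the 40th percentile of that array. AT5G44020 and AT1G04040 are low in zone 1 and high in zones 2 to 4, while AT4G29260 and AT4G29270 lie between 127.8 and 494 on every array.

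AT5G44020 had signals of 6.06 and 2.63 on the zone 1 arrays, 520.2 and 1540.1 in zone 2, 4154 and 3600.4 in zone 3, and 3811 and 3171 in zone 4 (replicates 1 and 2 in this order, here and below). Both zone 1 signals were under the 40th percentile of their arrays (33.7 and 27.1), the level taken here as the upper edge of dim signal. Every array of zones 2 to 4 was at 520.2 or higher, and the zone 2 arrays lay below all 4 arrays of zones 3 and 4. The zone means were 4.35 ± 2.43, 1030.1 ± 721, 3877 ± 391 and 3491 ± 452 (SD, n = 2 each). The order from high to low was zones 3, 4, 2 and 1, and zones 3 and 4, whose arrays overlapped, did not differ beyond their spread. Relative to zone 1, the log2 differences were 7.81, 9.92 and 9.77 in zones 2, 3 and 4. When dim signals were first set to that percentile, the same differences were 4.89, 7.0 and 6.85. With 32 added to every signal they were 4.68, 6.75 and 6.59.

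AT1G04040 had 38.2 and 30.4 in zone 1, 1658 and 4028 in zone 2, 9730.4 and 7342 in zone 3, and 5654 and 2474 in zone 4. Its zone 1 signals were low but above the 40th percentile of their arrays, so resetting dim signals did not alter them. The zone 3 arrays were above all others, while the arrays of zones 2 and 4 overlapped. The zone means were 34.3 ± 5.50, 2843 ± 1676, 8536 ± 1689 and 4064 ± 2248 (SD, n = 2 each). In order from high to low the zones were 3, 4, 2 and 1, and zones 4 and 2 did not differ beyond their spread. The log2 differences from zone 1 were 6.24, 7.95 and 6.78 in zones 2, 3 and 4, and 5.31, 7.0 and 5.83 with 32 added to every signal.

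The arrays of a zone were not equally far from zone 1, and the signals of both genes followed this in zones 2 and 3 but not in zone 4. Over the 13647 probe sets tested, the mean r with the zone 1 arrays was 0.849 for zone 2 replicate 1 and 0.754 for zone 2 replicate 2. The zone 2 replicate nearer to zone 1 had the lower signal for both genes, 2.96-fold for AT5G44020 and 2.43-fold for AT1G04040. In zone 3, replicate 2 was the nearer array (0.666 against 0.559) and again had the lower signal for both, 1.15-fold and 1.33-fold. In zone 4, replicate 1 was the nearer array (0.761 against 0.703) and had the higher signal for both, 1.20-fold and 2.29-fold. The part of array position in the zone differences was not tested. For the GAPDH control, the ratio of 3' to 5' probe signal, a measure of how complete the labelled RNA is, was 64.3 and 13.2 on the zone 1 arrays and 14.8 to 32.2 on the others. The part of RNA completeness in the signals of zone 1 was not tested.

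The neighbouring loci AT4G29260 and AT4G29270, which lie next to each other on chromosome 4 with no gene of the table between them, were the members with the narrowest range. AT4G29260 had 332 and 253 in zone 1, 391 and 494 in zone 2, 458 and 394 in zone 3, and 379 and 359.6 in zone 4. Its zone 1 arrays were the lowest and overlapped with no other zone, and zones 2, 3 and 4 followed in descending order. The zone 3 arrays lay between those of zone 2, so these zones did not differ beyond their spread, and the zone 4 arrays lay just under both. Zone 2 was 1.52-fold, zone 3 1.47-fold and zone 4 1.27-fold above zone 1. When arrays were centred on their medians, the zone 4 to zone 1 log2 difference went from 0.35 to -0.014, a setting in which the median difference of all probe sets tested was -0.36.

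AT4G29270 had 127.8 and 293 in zone 1, 185.4 and 279 in zone 2, 193.1 and 273 in zone 3, and 276 and 198.3 in zone 4. The arrays of all 4 zones overlapped, and the zone means, from 210.2 ± 117 in zone 1 to 237 ± 54.8 in zone 4 (SD, n = 2), did not differ beyond their spread. Across the 8 arrays the log2 signals of the 2 neighbours had a Pearson r of 0.0052. Of the 14 genes that flank a member and are not members, 8 had a single-gene probe set, and their r with that member ranged from -0.49 to 0.78. The highest value was that of AT4G29250 with its neighbour AT4G29260. These correlations share the same 8 arrays and are a description only.

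AT4G25150 had its lowest signals in zone 3, where the leading pair had their highest, and its highest in zone 4. Its signals were 118.5 and 64.2 in zone 1, 65.1 and 63.6 in zone 2, 37.0 and 32.9 in zone 3, and 128.0 and 139 in zone 4. The zone 3 arrays were below all others and the zone 4 arrays above all others, while zones 1 and 2 overlapped and did not differ beyond their spread. Only zone 3 replicate 2 was under the 40th percentile of its array, at 32.9 against 47.6. The zone means were 91.3 ± 38.4, 64.3 ± 1.04, 35.0 ± 2.86 and 133 ± 7.77 (SD, n = 2 each).

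AT5G51260 differed between neighbouring zones by little against the spread of its arrays, with 64.8 and 45.6 in zone 1, 89.4 and 58.4 in zone 2, 161 and 65.7 in zone 3, and 105.4 and 149.8 in zone 4. Its zone 1 and zone 4 arrays did not overlap (2.31-fold, log2 difference 1.21), but every pair of neighbouring zones did. The 2 zone 3 arrays differed by 2.45-fold. When arrays were centred on their medians, the difference between zones 4 and 1 was 0.84.

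AT2G38600 and AT2G39920 did not reach the mean signal of 42.5 needed to enter the tests. The mean over all arrays was 27.7 for AT2G38600 and 11.4 for AT2G39920, while the dimmest member that was tested, AT4G25150, had 81.0. AT2G38600 had 11.2 and 19.5 in zone 1, 27.9 and 16.3 in zone 2, 30.9 and 56.9 in zone 3, and 40.9 and 18.1 in zone 4. It was under the 40th percentile on 7 of the 8 arrays, zone 3 replicate 2 being the other. AT2G39920 was under it on all 8, with signals from 0.84 to 21.5, and these extremes were the 2 arrays of zone 4. Signals this dim do not order the zones.

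Relative to zone 1, 2 of the 6 tested members were higher on both arrays and at least 2-fold in zone 2, 2 in zone 3 and 3 in zone 4. AT5G44020 and AT1G04040 made up the first counts, and AT5G51260 joined them in zone 4. Over all 13647 probe sets the same condition held for 14.5%, 21.9% and 17.8%. In the other direction, AT4G25150 alone was lower, in zone 3 (2.50-fold), where 23.7% of all probe sets met that condition, against 13.5% in zone 2 and 11% in zone 4. The contrasts with zone 1 chose the family, so these counts support nothing. Median log2 differences of the 6 members were 0.51, 0.74 and 0.91 in zones 2, 3 and 4, beside -0.0021, -0.011 and 0.0013 for all probe sets tested.

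Between zones 2, 3 and 4, no member passed the test (limma's moderated test; a call needed 2-fold and, after Benjamini-Hochberg adjustment over 13647 probe sets, a p under 0.05). Few probe sets of any kind did so: 0 (0%) between zones 2 and 3, 288 (2.11%) between zones 3 and 4, of which 252 (1.85%) were higher and 36 (0.264%) lower in zone 4, and 1 (0.00733%) between zones 2 and 4. At an unadjusted limma p under 0.05 there were 2470, 2546 and 1554 of the 13647 probe sets, and 2 of the 6 members in each contrast. These members were AT5G44020 and AT1G04040 between zones 2 and 3, and AT1G04040 and AT4G25150 between zones 3 and 4. Between zones 2 and 4 they were AT5G44020 and AT4G25150. The choice of the family did not use these contrasts, but the zone 2 and zone 4 arrays of AT5G44020 and AT1G04040 had entered it, so the tests of this pair are not independent of the choice. A count of 0 of 6 is near these backgrounds and says nothing particular about the family.

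AT5G44020 had its largest difference within these zones between zones 2 and 3, 4.32-fold higher in zone 3 (log2 difference 2.11, SE 0.52, 95% interval 0.95 to 3.27, limma adjusted p = 0.11). Zone 4 was 3.88-fold above zone 2 (log2 difference 1.96, SE 0.52, limma adjusted p = 0.18). In both comparisons the arrays did not overlap. The share of all probe sets without overlap between zones 2, 3 and 4 was not counted, so a lack of overlap here is a description only. Over the alternative settings the log2 difference of zone 3 from zone 2 ranged from 1.33 to 2.89 and that of zone 4 from zone 2 from 1.17 to 2.74, always positive and never called. Zone 4 against zone 3 gave a log2 difference of -0.15 (95% interval -1.31 to 1.00).

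AT1G04040 was 3.27-fold higher in zone 3 than in zone 2 (log2 difference 1.71, SE 0.48, limma adjusted p = 0.13) and then 2.26-fold lower in zone 4 than in zone 3 (log2 difference -1.18, SE 0.48, limma adjusted p = 0.22). Arrays did not overlap in either comparison, again as a description only. Over the alternative settings the first log2 difference ranged from 1.07 without zone 2 replicate 1 to 2.35 without zone 2 replicate 2. The second ranged from -1.77 without zone 4 replicate 1 to -0.58 without zone 4 replicate 2, which is less than 2-fold, and neither was called in any setting. Zone 4 against zone 2 gave 0.53 (95% interval -0.53 to 1.60), its arrays overlapped, and over the settings it ranged from -0.11 to 1.17.

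AT4G25150 came closest to the threshold, with a 3.82-fold higher signal in zone 4 than in zone 3 (log2 difference 1.93, SE 0.47, 95% interval 0.90 to 2.96, limma adjusted p = 0.059). It was called in 2 of the alternative settings, without zone 1 replicate 2 (limma adjusted p = 0.046) and with dim signals set to the 40th percentile (log2 difference 1.67, limma adjusted p = 0.048). Over all alternatives its adjusted p ranged from 0.046 to 0.36. Zone 4 was also 2.07-fold above zone 2 (limma adjusted p = 0.43), and zone 3 had a log2 difference of -0.88 from zone 2 (limma adjusted p = 0.35). In all 3 comparisons the arrays did not overlap, which is likewise a description without the share of all probe sets beside it.

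The remaining tested members had estimated differences of less than 2-fold among zones 2 to 4, but only the intervals of AT4G29260 excluded a 2-fold change. For AT4G29260 the log2 differences were between -0.25 and -0.049, and the widest limits of the 3 intervals were -0.95 and 0.65, so a 2-fold change lay outside all of them. For AT4G29270 they were between 0.013 and 0.041, with limits of -0.97 and 1.02. AT5G51260 had 0.51 from zone 2 to zone 3, 0.29 from zone 3 to zone 4 and 0.80 from zone 2 to zone 4, with intervals that reached from -0.86 to 1.95. Adjusted p-values of these 3 genes were between 0.61 and 0.99 in limma.

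**Figure D2:**
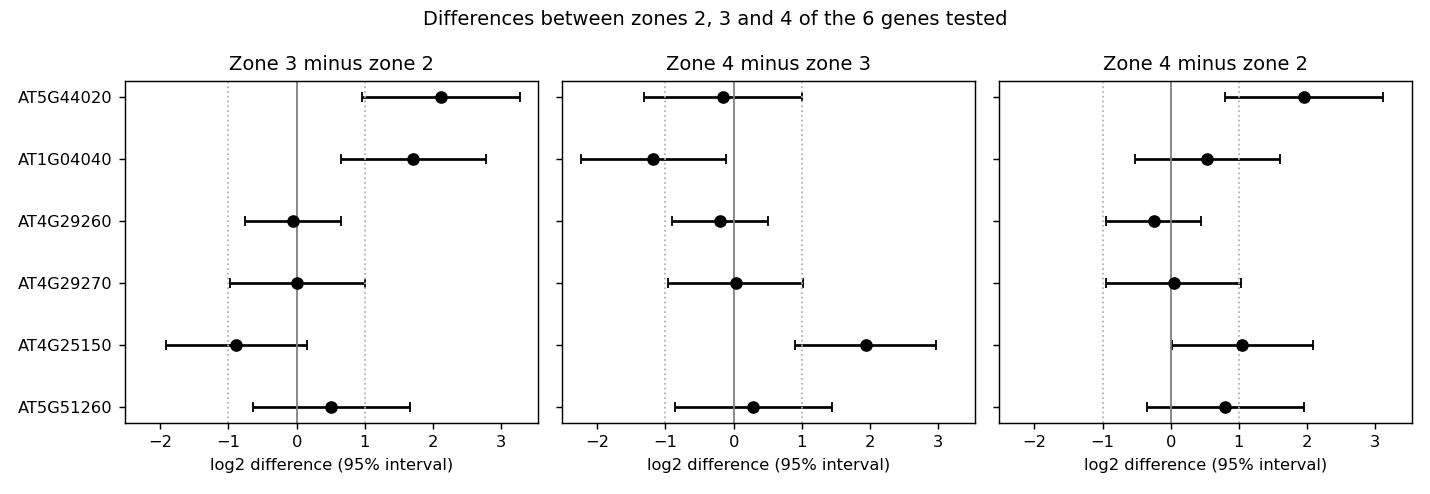
Log2 differences between zones 2, 3 and 4 (x axis) for the 6 acid phosphatase genes tested (y axis); points are limma estimates from 2 arrays per zone, bars 95% intervals, not adjusted for the number of genes, and dotted lines mark 2-fold. Zone 3 lies above zone 2 for AT5G44020 (2.11) and AT1G04040 (1.71), and zone 4 above zone 3 for AT4G25150 (1.93).

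AT5G44020 and AT1G04040 were the most alike of the 28 member pairs. Their log2 signals had a Pearson r of 0.99 over the 8 arrays and of 0.78 over the 6 arrays of zones 2 to 4. Part of the likeness thus came from their shared low in zone 1, which was known when the family was chosen. The r of this pair over the 8 arrays is therefore no independent result. The next pair, AT1G04040 and AT4G29260, had 0.82 over 8 arrays and 0.38 over the 6. Of all pairs 12 had an r below 0, the lowest being -0.58 for AT4G29270 with AT2G39920. AT4G25150 had an r below 0 with 6 of the other members.

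**Figure D3:**
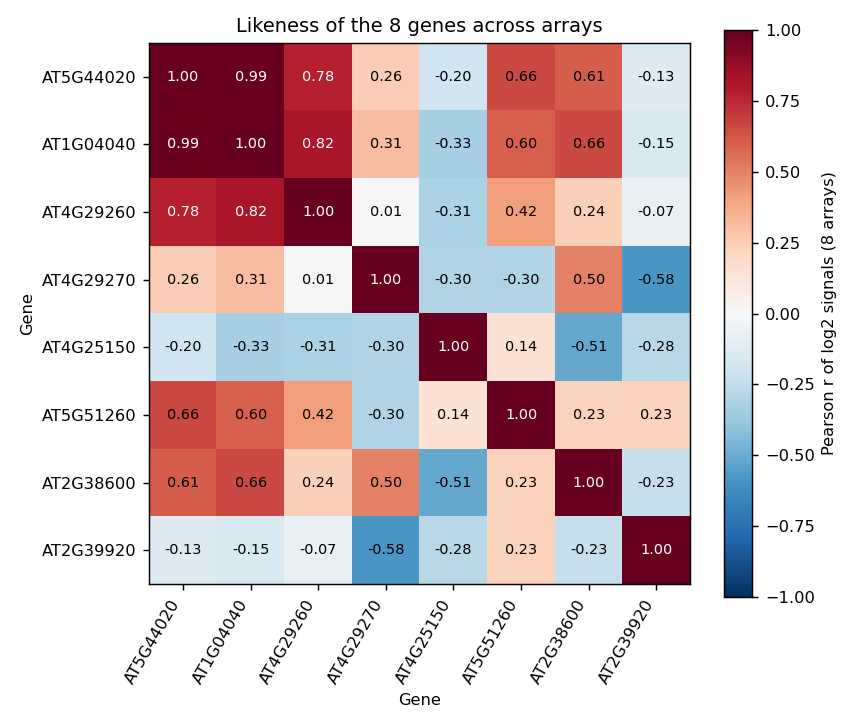
Pearson r of log2 signals over the 8 arrays for every pair of the 8 acid phosphatase genes, with the value in each cell. AT5G44020 and AT1G04040 form the one pair above 0.9, and AT4G25150 has negative values with every member but AT5G51260.

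Across all named probe sets that were tested, the genes most like AT5G44020 in log2 signal over the 8 arrays were AT3G44510, AT3G05920 and AT4G30170, with Pearson r of 0.995, 0.994 and 0.994. Those most like AT1G04040 were AT1G67330, AT3G05920 and AT5G06930, with 0.996, 0.995 and 0.994, so AT3G05920 was among the closest 3 for both. All these r include zone 1, where the low signals of both members were known when the family was chosen. No r without zone 1 was computed for them. Zone 1 signals were dim for AT5G44020 itself, AT3G44510 (0.97 and 0.91), AT3G05920 and AT5G06930 (2.54 and 2.84), so their r rest partly on dim signals. Those of AT1G04040, AT4G30170 and AT1G67330 were not dim. AT3G05920 had 1.71 and 1.55 in zone 1, 133 and 243 in zone 2, 613 and 547 in zone 3, and 391 and 298 in zone 4. Like AT1G04040, it was lowest in zone 1 and highest in zone 3, without overlap. AT1G67330 had 62.9 and 51.6 in zone 1, 1756 and 4318 in zone 2, 6929 and 4566 in zone 3, and 3365 and 2261 in zone 4, so its zone 2 and zone 4 arrays overlapped as well.

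The genes most like AT4G25150 were AT1G62850, AT3G25910 and AT2G41550, at r of 0.992, 0.972 and 0.963. AT1G62850 had 279 and 185.7 in zone 1, 190.5 and 178 in zone 2, 140.8 and 115.2 in zone 3, and 274 and 289.8 in zone 4, with its low in zone 3. For AT4G29260 the closest were AT4G03030, AT1G53290 and AT1G56720 (0.985, 0.972 and 0.964). For AT5G51260 they were AT1G05340, AT5G66250 and AT1G19020 (0.962, 0.962 and 0.960). AT1G05340 was dim in zone 1 (3.56 and 1.72), in zone 2 (15.7 and 5.27) and on zone 3 replicate 2 (10.8). AT4G29270, whose zones did not differ beyond their spread, had as its closest AT5G09995, the glucosyltransferase gene UGT71B5 and AT3G12150, at 0.934, 0.914 and 0.904. There the likeness was in the differences between replicates. UGT71B5 was dim on replicate 1 of zones 1 and 2 (10.1 and 24.6) and in zone 4 (40.7 and 36.5). AT2G41550 was dim on zone 3 replicate 2 (40.9). The r of AT1G05340, UGT71B5 and AT2G41550 thus rest partly on dim signals. With only 8 arrays and so many genes, some high r are found for any gene, and none of these likenesses was tested.

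Markers of cell types changed along the same zones. Of 28 marker loci drawn up, 7 had a single-gene probe set, and none of the 7 was at 0 on any array. The summed signal of the 3 meristem markers measured of 6 (BBM, AUR1 and AUR2) was 3165 and 1405 in zone 1, 812 and 741 in zone 2, 178.3 and 382 in zone 3, and 1707 and 1316 in zone 4. It was lowest in zone 3, as AT4G25150 was, and AT4G25150 had an r of 0.90 with AUR2, 0.82 with BBM and 0.76 with AUR1 over the 8 arrays. Over the 6 arrays of zones 2 to 4 these values were 0.96, 0.88 and 0.77. The patterns differed in zone 1. All 3 markers had their highest zone mean there, with arrays overlapping zone 4, and fell from zone 1 to zone 2 without overlap. AT4G25150 was highest in zone 4, and its zones 1 and 2 overlapped. BBM was under the 40th percentile on 4 of the 8 arrays, those of zones 2 and 3, so its r rests partly on dim signals. The r of AT5G44020 with AUR2, BBM and AUR1 was -0.57, -0.54 and -0.59 over the 8 arrays, and -0.14, 0.23 and -0.35 over the 6. For AT5G44020 the negative values thus rested largely on zone 1. AT1G04040 differed in this, with -0.66, -0.65 and -0.66 over the 8 arrays, and -0.57, -0.34 and -0.64 over the 6. In zone 4 the meristem markers and AT5G44020 were both high.

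The 2 root hair markers measured of 5, the expansin genes EXPA7 and EXPA18, summed to 44.3 and 8.50 in zone 1, 52.6 and 101.3 in zone 2, 360 and 218 in zone 3, and 317 and 1886 in zone 4. These genes loosen the walls of growing root hairs. Their r with AT5G44020 was 0.88 and 0.77 over the 8 arrays and 0.78 and 0.68 over the 6. With AT1G04040 it was 0.80 and 0.67 over the 8 arrays, but 0.24 and 0.13 over the 6. AT5G51260 had 0.77 and 0.86 over the 8 arrays and 0.56 and 0.76 over the 6, so with EXPA18 it was above AT5G44020. Among the other members r was between -0.16 and 0.58 over the 8 arrays and between -0.52 and 0.43 over the 6. EXPA7 was under the 40th percentile on 3 of the 8 arrays and EXPA18 on 4. Both lateral root primordium markers measured, LBD16 and LBD29, were dim, with sums from 3.39 to 83.6. The root cap, endodermis, xylem and shoot markers of the list were not analysed here. The part of cell type composition in the differences of the acid phosphatase genes was not tested.

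Related genes of phosphate release and phosphate response were followed from 2 lists, of which few loci had a single-gene probe set: 3 of 29 purple acid phosphatase loci and 3 of 36 phosphate response loci. None of the 5 that were tested passed in any contrast between zones 2, 3 and 4. AT1G25230, listed as PAP4 and without a name in the gene table, had 55.9 and 65.5 in zone 1, 164.2 and 410.1 in zone 2, 554 and 748 in zone 3, and 1057 and 536 in zone 4. Its zone 1 arrays were the lowest, followed by zone 2, and the arrays of zones 3 and 4 overlapped, which is the order AT5G44020 had except that zone 4 had the higher mean. Zone 3 was above zone 2 by 1.31 on the log2 scale (SE 0.48, limma adjusted p = 0.20), and the difference of zone 4 from zone 2 was 1.54 (limma adjusted p = 0.25).

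AT1G13750, listed as PAP1 and likewise without a name in the gene table, had 392 and 412 in zone 1, 838 and 1379 in zone 2, 949.8 and 1013 in zone 3, and 932 and 619 in zone 4. Every array outside zone 1 was above the zone 1 arrays, and the log2 differences among zones 2 to 4 were between -0.50 and -0.13 with limma adjusted p from 0.63 to 0.88. PAP20 was dim, at 2.87 to 39.6, under the 40th percentile on all 8 arrays, and was not tested.

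LPR2, one of a pair of multicopper oxidase genes through which low phosphate slows root growth, had 40.8 and 6.66 in zone 1, 114.1 and 163 in zone 2, 348 and 205.1 in zone 3, and 254 and 307 in zone 4. Zone 1 was lowest without overlap, and the step from zone 2 to zone 3 was 0.97 on the log2 scale (SE 0.70, limma adjusted p = 0.50). Its relative LPR1 had 110.2 and 74.5, 40.4 and 80.6, 97.9 and 88.0, and 91.6 and 149.2 in zones 1 to 4, with zone 1 overlapping every other zone. SIZ1, which encodes a SUMO ligase that acts in phosphate signalling, went from 240.5 and 248 in zone 1 to 151.6 and 106.2 in zone 2, 166.8 and 108.1 in zone 3, and 127.3 and 199.9 in zone 4. Its zone 1 arrays were the highest of all. A second SIZ1 probe set was under the 40th percentile on all 8 arrays.

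**Figure D4:**
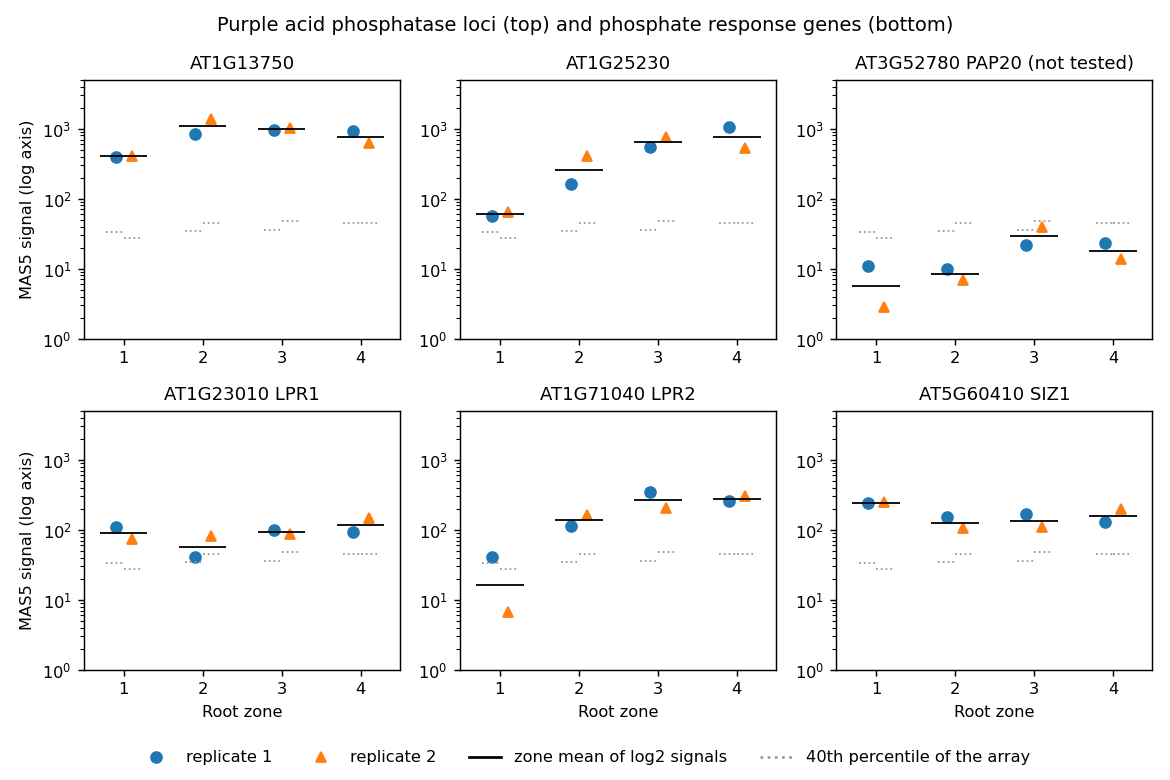
MAS5 signal (log axis) by root zone of the 3 purple acid phosphatase loci (top) and 3 phosphate response genes (bottom) with a single-gene probe set; circles and triangles are replicates 1 and 2, black lines zone means of log2 signals and dotted lines the 40th percentile of each array. AT1G25230 and LPR2 are lowest in zone 1, SIZ1 is highest there, and PAP20 is dim on all 8 arrays.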

How the data were processed

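RNA of 4 root zones, 2 arrays each, was made into biotinylated cRNA by a two-cycle protocol and hybridised to Affymetrix arrays, per the labels' protocols. The authors deposited linear intensity values, made with MAS5 per the submitters' processing notes, whose version is not given in the sources. After trimming 2% at each end the mean was 250.0 on every array, and medians ranged from 57.8 to 79.7. Each value is thus relative to the rest of its array, and the number of arrays limits precision.

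The table has 22810 probe sets, 64 of them controls, which were left out. Among the remaining 22746, 13513 had 1 gene in the platform annotation, 503 several and 8730 none here. A locus tag of assembly TAIR10.1, used for names and gene order only, matched 13436 of the 13513. The log2 of each signal was used with no offset, and 13647 probe sets with a mean signal above the 40th percentile (42.5) were kept.

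Zone means were fitted to all arrays with limma 3.58.1 (R 4.3.3), with 4 residual and 6.5 prior degrees of freedom and a prior variance following the signal. Tests were two-sided. On simulated data with changes planted in zone 4, the mean estimates of the fit were required to lie near the planted log2 differences. Missed or false calls in the real data are not measured by this. Members and lists were chosen with earlier results of these data known. Named were all members, for each tested member the 3 named probe sets of highest Pearson r, and the related loci with a probe set. Alternatives were other normalizations, filters, an offset, a floor, other priors, a replicate block, no minimum fold and leaving out arrays. Deviations from zone means correlated at -0.19 to 0.037 between zones, and replicate numbers were not used as pairs in the main fit. These values cannot show whether arrays of the same number shared plants or a batch. Python 3.11.15, pandas 2.3.3, numpy 2.4.6 and matplotlib 3.10.9 were used for tables and plots.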

Additional observations from a re-analysis of the deposited data

How the results depend on the processing

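The count of acid phosphatase genes called was 0 in each of the 3 contrasts among zones 2, 3 and 4 and stayed 0 in 55 of 57 comparisons with an alternative setting. The exceptions, both in zone 4 against zone 3, were 1 gene (AT4G25150) with dim signals set to the array's 40th percentile and a range of 0 to 1 over the settings that leave out 1 array, the 1 being without zone 1 replicate 2. With a replicate block the count was 0 in all 3 contrasts. Of 318 differences of single members among zones 2 to 4, 316 stayed uncalled, and the other 2 were the AT4G25150 differences above. The main fit called no member, so it held no call that a setting could reverse.

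Counts over all probe sets, which have far more room to change than a count over 6 genes, depended on the setting. For zone 3 against zone 2, 0 became 0 to 358 when 1 array was left out (3 without zone 3 replicate 1 and 358 without zone 3 replicate 2). For zone 4 against zone 3, 288 became 93 with each array centred on its median (66 of them higher, against 252 of 288), 37 with a prior variance without trend, 127 with the replicate block, 0 to 628 when 1 array was left out, and 546 when both zone 2 replicate 1 and zone 3 replicate 2 were left out, which was added after seeing the data. It was 0 without either zone 4 array, 26 without zone 3 replicate 1, 628 without zone 3 replicate 2, and 97 and 141 without zone 2 replicates 1 and 2. For zone 4 against zone 2, 1 became 3 with quantile normalization, 6 with no filter, 2 with a filter at 60%, 152 with an offset of 32, 151 with dim signals reset, 2 without trend, 3 with a robust prior, 0 with the replicate block, 0 without that pair of arrays, and 0 to 36 when 1 array was left out. The causes were not tested. Centring on the median moved the median difference of all probe sets between zones 3 and 4 from 0.10 to -0.14. Where dim signals could not be told from background, as for AT5G44020 in zone 1, AT2G38600 and AT2G39920, signal over background limits what the values show.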
